A study of Mus musculus with 24 samples.

Results

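Exc-CA1-Fras1 is a cluster of excitatory neurons in single-nucleus RNA-seq (snRNA-seq) and single-nucleus ATAC-seq (snATAC-seq) of the mouse ventral hippocampus, named for the gene Fras1 and placed by its name among the neurons of the CA1 field. Its members were taken as the 4 columns of the deposited cell-type count table that carry this name, 1 for each snRNA-seq library, and they summed 1506 of the 30880 nuclei. The same name in the snATAC-seq table covered 2011 of 27206 nuclei. The libraries came from male mice of 2 inbred strains with no treatment, C57BL/6J (B6) and DBA/2J (D2), aged 10 to 16 weeks, 2 libraries of each strain for either assay, each made from about 2 pooled animals. The CA1 clusters compared with it were Exc-CA1-Galntl6, with 3138 snRNA-seq nuclei, and Exc-CA1-Camk2d, with 1416. Of the 24 samples of the series, 16 single-nucleus methylation samples were not analysed here.

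CA1 pyramidal neurons are glutamatergic cells that receive the output of CA3 and send the main output of the hippocampus, by way of the adjoining subiculum, to the cortex and to subcortical targets. In the ventral hippocampus this output reaches the amygdala, hypothalamus and prefrontal cortex, and it is studied for its part in anxiety, stress responses and social memory. Fras1 encodes a large extracellular matrix protein that, with the Frem proteins, anchors epithelia to the basement membrane, and its loss causes Fraser syndrome. A nucleus yields mostly unspliced transcripts, so that snRNA-seq counts of long genes include many reads from introns, whereas snATAC-seq counts the DNA fragments released from open chromatin, grouped in peaks.

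The cluster held 455 and 323 nuclei in the B6 snRNA-seq libraries, numbered 2 and 3, and 430 and 298 nuclei in D2 libraries 2 and 3. These were 4.11 to 5.37% of the nuclei of a library and 23.3 to 25.7% of its CA1 nuclei, shares that the gates used to sort NeuN-positive nuclei can also set. The summed counts of the cluster were 4583199 and 3934803 in B6 and 4076663 and 3141351 in D2. In snATAC-seq, which had no NeuN sort, the cluster held 468 and 336 nuclei in B6 and 658 and 549 in D2, with 5913427 to 9915569 counts. Of 33902 gene symbols, 24634 had counts in both strains, 971 in B6 alone and 8169 in D2 alone, and only the symbols of both strains were compared. Values below are CPM, counts per 1000000 counts of those symbols, or of the peaks counted in both strains, and where 4 values stand together their order is B6 library 2, B6 library 3, D2 library 2 and D2 library 3. Across 11533 symbols the Pearson correlation of the log2 CPM of the cluster was 0.986 for the B6 pair, 0.985 for the D2 pair and 0.930 to 0.940 across strains, a description over genes that share library and depth.

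Fras1 itself (ENSMUSG00000034687, chr5:96373955-96784728, plus strand, GRCm38) was present at 522, 544, 487 and 467 CPM in the cluster, a mean of 505 ± 34.6 (SD, n = 4 libraries). The same transcript stood at 86.0, 109, 88.1 and 110 CPM in Exc-CA1-Galntl6 and at 59.5, 66.4, 44.7 and 36.3 CPM in Exc-CA1-Camk2d. Every library of the cluster was above every library of the other CA1 clusters, by 6.14 to 7.25 times the mean of those clusters within a library. Beyond CA1 the next levels were 89.2 ± 22.4 CPM in the entorhinal cluster Exc-ENT and 67.0 ± 3.06 in the dentate cluster Exc-DG. Exc-Gpc6 stood at 39.2 ± 19.5, Exc-CA3 at 36.2 ± 7.32 and Exc-Cdh12 at 31.8 ± 6.41 CPM, 3 neighbours in this order that did not differ beyond their spread, and Exc-ENT overlapped with Exc-CA1-Galntl6. Interneuron and Cajal-Retzius clusters, 4 of the 17 cell types, were not used here. The means of the glial and vascular clusters were 6.14 to 21.1 CPM. Because the cluster was defined from these transcripts, its levels against other clusters are a description and carry no test. Each column sums the counts of all nuclei of a cluster in a library. From these sums, fewer expressing nuclei and less RNA in each nucleus cannot be told apart.

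**Figure D1:**
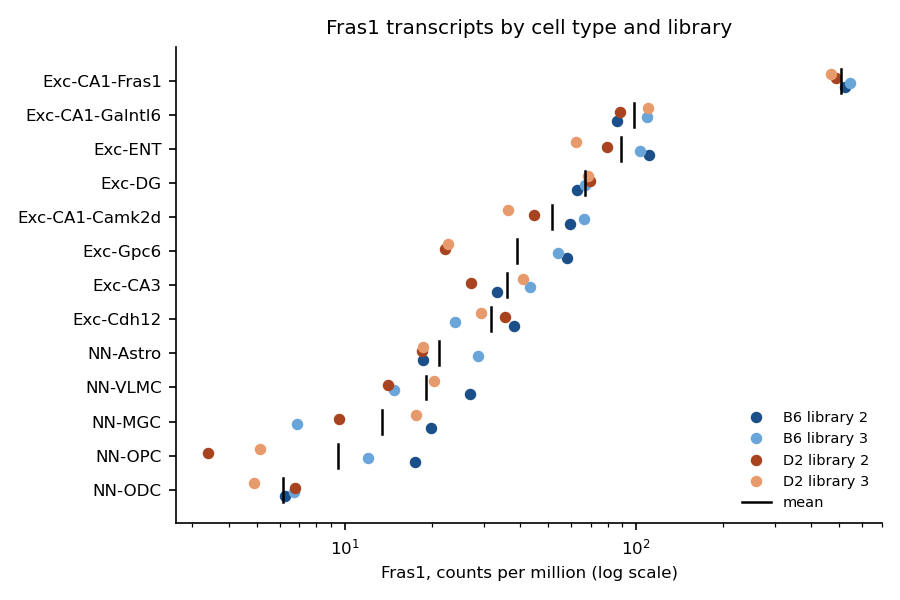
Fras1 level in CPM on a log scale for each of the 13 cell types used, of 17 in the snRNA-seq table, 1 point per library, with B6 and D2 libraries marked and a line at the mean of the 4 libraries. The 4 libraries of Exc-CA1-Fras1 lie between 467 and 544 CPM and the highest library of the other cell types used is at 111 CPM.

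The transcripts whose level over the 13 cell types followed that of Fras1 most closely, by Pearson correlation of log2 CPM among 14725 symbols, were Edem3 (r = 0.918), Ckmt1 (0.884), Socs7 (0.879) and Ripor2 (0.875). Edem3 acts in the disposal of misfolded glycoproteins and Ckmt1 is a mitochondrial creatine kinase. Both were expressed in every neuronal cluster, and the cluster exceeded the next cell type by little. Edem3 stood at 63.6 CPM against 59.6 in Exc-DG, and Ckmt1 at 46.0 against 31.5 in Exc-ENT.

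The markers of the CA1 field gave a divided picture. Mpped1, a marker of CA1 pyramidal cells, was at 187, 198, 237 and 239 CPM, within the 172 to 243 CPM of the other CA1 clusters. Fibcd1 was 7.00-fold lower, at 5.12 to 12.2 CPM against 29.6 to 78.8, and Wfs1, a dorsal CA1 marker, was 5.32-fold lower, at 3.55 to 3.95 CPM against 4.82 to 48.0. Pou3f1 was at 22 to 47.1 CPM and overlapped with the other clusters. Of the 6 CA1 markers, 3 were past 2-fold lower in all 4 libraries and none past 2-fold higher.

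Markers of the subiculum went the other way: 3 of 3 (Fn1, Nts and Slc17a6) were past 2-fold above the mean of the other CA1 clusters in every library, with a summed level of 193 to 255 CPM against 3.59 to 50.1 CPM in those clusters. Slc17a6, the vesicular glutamate transporter VGLUT2, was at 30.5, 19.96, 13.7 and 17.1 CPM. It was at 6.06, 12.7, 9.5 and 8.01 CPM in Exc-CA1-Camk2d and at 0.867 to 2.14 CPM in Exc-CA1-Galntl6. Beyond CA1, Slc17a6 averaged 60.7 CPM in Exc-Gpc6 and 30.8 CPM in Exc-Cdh12, above the 20.3 CPM of the cluster. Fn1 averaged 109 CPM in Exc-Cdh12 and Nts 15.1 CPM in Exc-ENT, below the cluster means of 168 and 28.05 CPM. Fezf2, a factor of deep-layer projection neurons, was at 47.6, 53.0, 58.1 and 58.3 CPM against 1.14 to 13 CPM, and Foxp2 at 9.90 to 13.6 CPM was 2.71-fold higher. Of the 7 markers of cortical layers these 2 were past 2-fold higher and 1 lower, and their summed level, 556 to 827 CPM, lay within the 84.7 to 1168 CPM of the other CA1 clusters. Ndst4, a heparan sulfate-modifying enzyme used as a dorsal CA1 marker, was at 664, 602, 557 and 640 CPM against 11.8 to 192 CPM, whereas Gpc3, a ventral marker, was 10.7-fold lower, at 3.84 to 6.85 CPM. Of the 4 dorsal markers 1 was past 2-fold higher and 2 lower, and of the 6 ventral markers none was higher and 1 lower. Of the CA1 genes given above, Mpped1 was at the level of the other CA1 clusters and Fibcd1 and Wfs1 were not. Mpped1 was also at 171 CPM in Exc-Cdh12, 168 CPM in Exc-ENT and 109 CPM in Exc-Gpc6, against a mean of 215 CPM in the cluster, which is called here by its leading gene Fras1.

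The pan-excitatory genes placed the cluster among glutamatergic neurons. Slc17a7 (VGLUT1) was at 237 to 305 CPM, under the 331 to 426 CPM of the other CA1 clusters, and Camk2a at 635 to 707 CPM lay within their range. Neurod6 was at 14.3 and 13.8 CPM in B6 and 28.2 and 33.3 CPM in D2 against 45.9 to 124 CPM, 3.59-fold lower. Signal of other cell types was low. Interneuron markers summed to 19.1 to 29.3 CPM (22.5 to 44.7 in the other CA1 clusters), astrocyte markers to 14.8 to 21.2 CPM, oligodendrocyte precursor markers to 3.33 to 4.61 CPM and vascular markers to 2.31 to 7.11 CPM. Lhx6, Col1a2, Cldn5, Lhx5, Iyd, Dsp, Amigo2 and Cacng5 were under 1 CPM, but other members of some of their lists were not. Cajal-Retzius markers summed to 41.6 to 71.4 CPM (12.9 to 103 in the other CA1 clusters). CA3 markers summed to 44.8 to 92.1 CPM (122 to 317) and CA2 markers to 25.5 to 34.3 CPM (22.5 to 32.6). Oligodendrocyte markers summed to 154 and 152 CPM in B6 and 98.0 and 105 CPM in D2, with 12080 CPM in the oligodendrocyte cluster. Microglial markers were at 68.3 and 69.9 CPM in B6 and 51.8 and 54.1 CPM in D2. Both sets were thus higher in the B6 than in the D2 libraries, and their part in the strain differences below was not tested.

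Against the mean of Exc-CA1-Galntl6 and Exc-CA1-Camk2d in the same library, 176 of 10105 symbols with at least 10 CPM on the higher side (1.74%) were past 2-fold higher in the cluster in all 4 libraries, and 274 (2.71%) were past 2-fold lower. At the threshold Nab1 stood just inside, at a ratio of 2.01 in its lowest library, and Dnm3 just outside, at 2.00. Of the 176, 64 had their highest level of the 13 cell types used in the cluster, 50 were past 4-fold by the median ratio, and 43 were clone names. Of the 274, 99 had their lowest level among the excitatory clusters there, 73 were past 4-fold and 61 were clone names. Selection against the other CA1 clusters favours both the 64 and the 99. These counts have no share over all 10105 symbols beside them and are not a measure of specificity. Ratios were computed on CPM + 1 and understate the change of low genes.

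The transcript with the largest ratio was Gm42705, a lincRNA, at 375, 383, 327 and 372 CPM against 3.08 to 18.8 CPM, 26.6-fold higher by the median. Npsr1, the receptor for neuropeptide S, was at 55.1, 57.1, 43.4 and 33.6 CPM against 0.563 to 3.71 CPM (21.2-fold), with a higher level, 523 CPM, in Exc-Gpc6. Cntn6, a contactin of developing synapses, was at 234, 264, 214 and 208 CPM against 4.99 to 27.1 CPM (14.6-fold) and reached 426 CPM in Exc-ENT. The libraries of the cluster stood clear of the other CA1 clusters for all 3.

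Secreted and matrix-related transcripts were among the 12 with the largest ratios. Fn1, which encodes fibronectin, was at 135, 153, 181 and 204 CPM against 0.713 to 36.9 CPM (12.2-fold), a level shared with the vascular leptomeningeal cluster (196 CPM). Nts, which encodes the peptide neurotensin, was at 34.0, 20.2, 23.4 and 34.6 CPM against 0.563 to 3.39 CPM (9.93-fold). The vascular markers Col1a2 and Cldn5 were under 1 CPM in the cluster. Synaptic and guidance receptors were Robo3, a receptor of commissural axons, at 33.8 to 35.8 CPM (10.5-fold), and Elfn1, a postsynaptic partner of metabotropic glutamate receptors, at 14.2 to 21.7 CPM (8.74-fold). Robo3 was also high in Exc-Cdh12, at 63.9 CPM.

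The remaining named transcripts were Gm6260 at 62.7 to 95.2 CPM (19.0-fold), Teddm3 at 17.6 to 24.1 CPM (11.3-fold), Osbpl3, a lipid-transfer protein, at 58.4 to 76.8 CPM (11.2-fold), Klhl1, an actin-binding protein, at 56.1 to 88.0 CPM (10.4-fold), and Tox. Tox encodes a high-mobility-group transcription factor. It was at 401, 410, 480 and 490 CPM against 30.3 to 76.3 CPM (8.08-fold), and at 766 CPM in Exc-Gpc6. For each of the 12, every library of the cluster was above every library of the other CA1 clusters.

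**Figure D2:**
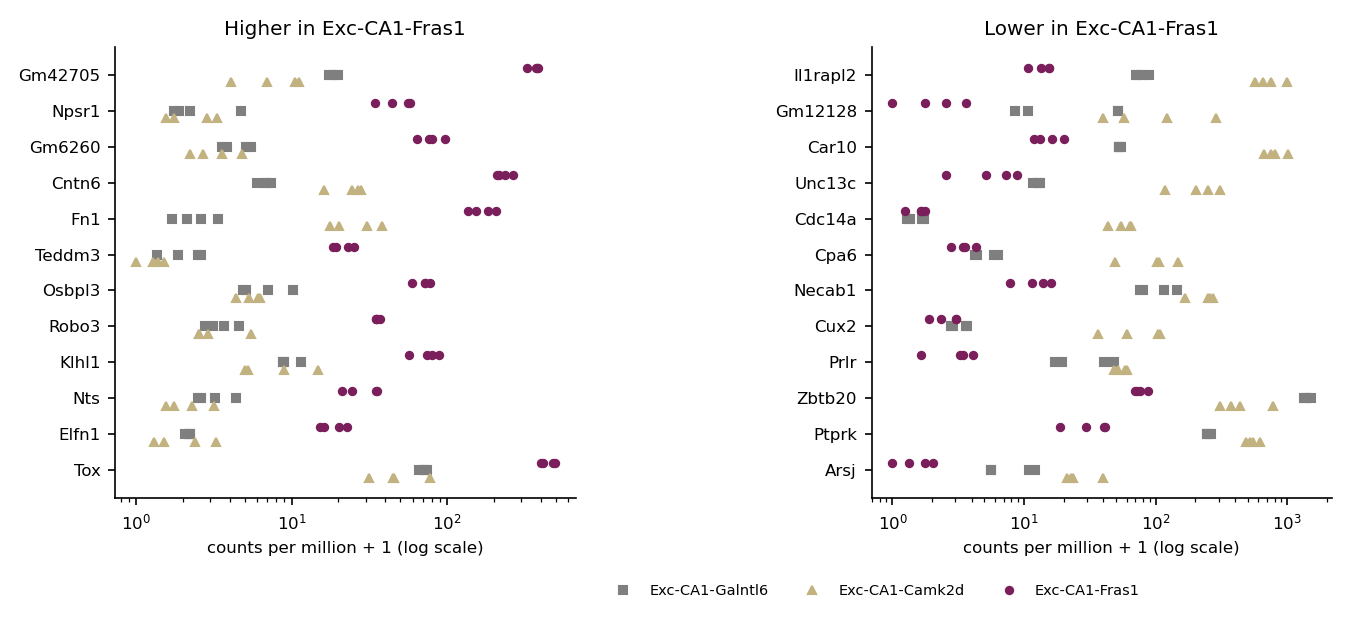
Level of the 12 transcripts with the largest ratio (left) and the 12 with the smallest ratio (right) in Exc-CA1-Fras1 against the other CA1 clusters, as CPM + 1 on a log scale, 1 point per library and cluster. On the left the Exc-CA1-Fras1 points lie to the right of all others, and on the right they lie to the left of Exc-CA1-Camk2d throughout but meet Exc-CA1-Galntl6 for Cdc14a, Cpa6 and Cux2.

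Among transcripts lower in the cluster, Il1rapl2, a synaptic adhesion protein, was at 9.66, 14.3, 14.5 and 12.5 CPM against 70.0 to 993 CPM, 30.1-fold lower. Car10, a secreted ligand of neurexins, was at 15.4, 18.9, 12.2 and 10.9 CPM against 51.4 to 1018 CPM (28.7-fold lower). Zbtb20, a transcription factor required for CA1 identity, was at 71.1, 87.0, 74.9 and 68.9 CPM against 309 to 1513 CPM (12.3-fold lower). These 3 were lower than in every library of both other clusters.

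Necab1, a calcium-binding protein, was at 6.81 to 15.1 CPM (15.3-fold lower), Ptprk, a receptor tyrosine phosphatase, at 17.8, 28.7, 39.3 and 39.9 CPM against 244 to 615 CPM (12-fold lower), and Prlr, the prolactin receptor, at 0.659 to 3.07 CPM against 16.2 to 59.3 CPM (13.1-fold lower). Gm12128 (29.3-fold), Unc13c, a vesicle-priming protein (19.6-fold), and Arsj, a sulfatase (11.7-fold), were likewise under every library of the other clusters. Cdc14a (17.8-fold lower), Cpa6 (15.7-fold) and Cux2 (13.9-fold) owed their ratio to Exc-CA1-Camk2d. Cdc14a was at 0.254 to 0.768 CPM in the cluster and from 0.297 CPM upward in the other clusters, where its highest value was 63.7 CPM. Against the lower of the other clusters in each library, 7 of the 12 remained past 2-fold lower, whereas all 12 of the higher set remained past 2-fold higher against the higher of them. The name genes of the other clusters were low, with Galntl6 at 495, 566, 352 and 325 CPM (5.94-fold lower) and Camk2d at 36.2 to 52.3 CPM (6.14-fold lower).

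Gene groups of neuronal function were read against 1.74% higher and 2.71% lower of all symbols and a median log2 ratio of -0.04. Of 38 transcription factors of excitatory neurons, 6 were past 2-fold higher (Foxp2, Nr4a2, Zfpm2, Fezf2, Id2 and Tox) and 8 lower, among them Zbtb20, Neurod6, Meis2, Cux2, Lhx2, Nfia and Zfhx4, with a median of -0.09. Nr4a2, an orphan nuclear receptor, was at 85.2, 77.8, 87.8 and 106 CPM against 12.9 to 36.7 CPM. Of 9 activity-induced genes, Nr4a1 and Nr4a2 were higher and none lower, with a median of 0.67. Nr4a1 was at 61.7, 63.7, 41.4 and 48.5 CPM against 12.9 to 22 CPM. Fos, the most used marker of recent activity, was at 2.64, 4.86, 1.52 and 7.25 CPM against 0 to 1.97 CPM.

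Ion channels and receptors moved in part. Of 32 potassium and HCN channel genes, 3 were higher (Kcnip1, Dpp10 and Kcnh7) and 6 lower (Kcna4, Kcnab1, Kcnc1, Kcnc2, Kcnip2 and Kcnk2). Dpp10, an auxiliary subunit of A-type channels, was at 2951, 3054, 2461 and 2278 CPM against 130 to 947 CPM (4.79-fold). Kcnc2, which encodes the fast channel Kv3.2, was at 39.3, 47.3, 37.8 and 48.8 CPM against 131 to 406 CPM (5.67-fold lower). Of 24 sodium and calcium channel genes, 3 were higher (Cacna1h, Cacna2d2 and Ryr1) and none lower.

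Among glutamate receptors, Grik1 and Grik3 of 20 AMPA and kainate receptor genes were higher, and Grik4, Cacng2 and Gsg1l lower. Grik3 was at 92.4, 99.8, 94.4 and 80.1 CPM against 10.9 to 49.7 CPM (3.34-fold). Of 13 NMDA and metabotropic receptor genes, 2 were higher, Grm8 among them, and none lower. Grm8 was at 903, 808, 763 and 782 CPM against 55.9 to 433 CPM. None of 12 GABA receptor genes and none of 6 genes of corticosteroid receptors and stress targets passed 2-fold in either direction. Peptide and amine receptors included Oprm1, the mu opioid receptor, at 204, 237, 124 and 141 CPM against 12.8 to 63.3 CPM (4.78-fold), Adra1a at 77.5 to 94.2 CPM (3.38-fold), and Htr2a, which was 5.58-fold lower. Nts and Oprm1 were the 2 of 9 neuropeptide genes past 2-fold.

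Of 40 synaptic adhesion genes, 5 were higher (Lrrtm3, Lrrtm4, Cntnap5a, Cntn4 and Cntn6) and 3 lower (Tenm1, Il1rapl2 and Nectin3), with a median of 0.26. Cntn4 was at 1661, 1642, 1575 and 1628 CPM against 131 to 373 CPM (6.07-fold), and Lrrtm4, a postsynaptic receptor for neurexins and heparan sulfate, at 6475, 5974, 5000 and 5027 CPM against 912 to 2703 CPM (3.5-fold). Of 30 axon guidance genes, 4 were higher (Robo1, Ephb1, Efna5 and Ntng1) and 6 lower (Slit1, Sema3e, Epha3, Epha4, Epha7 and Dcc). Efna5, an ephrin, was at 389, 401, 324 and 346 CPM against 10.5 to 168 CPM (4.72-fold), while its receptor Epha3 was 9.95-fold lower. Dcc, the netrin receptor, was at 205, 258, 214 and 221 CPM against 981 to 2757 CPM (7.94-fold lower).

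Among 21 cadherins 3 were higher (Cdh6, Cdh7 and Cdh22) and 2 lower (Cdh9 and Cdh12), and among 25 kinases, cyclases and phosphodiesterases Pde4b was higher and Camk2d and Prkca lower. Of the 4 Fraser complex genes and partners at 10 CPM only Fras1 passed 2-fold, and Frem1, Frem2 and Frem3, whose products form the complex, were at 0 to 2.05 CPM. Of 8 matrix genes Spock1 was lower (6.53-fold), and of 9 collagens Col5a1 (8.55-fold) and Col11a1 were lower, with none higher in either group.

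Open chromatin was compared in the same way, also without a test because cell types were transferred to the snATAC-seq nuclei from the snRNA-seq clusters. Of 58047 peaks with at least 5 CPM on the higher side, 2797 (4.82%) were past 2-fold more open in the cluster than in the mean of the other CA1 clusters in all 4 libraries, and 1322 (2.28%) past 2-fold less open. Within 1000 bases of a transcript start lay 29.8% of the 58047 peaks, against 6.29% of the more open and 7.49% of the less open ones. Intergenic peaks were 28.9% of all, 45.9% of the more open and 46.4% of the less open.

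Coordinates of peaks are as deposited, on mm10 (GRCm38). A peak in an intron of Fras1, chr5:96762932-96763477, was picked as the most open over the gene. It was at 5.59, 6.19, 6.94 and 5.55 CPM against 0.442 to 0.989 CPM in the other CA1 clusters, 4.45-fold more open. The largest ratio belonged to the intergenic peak chr10:25064681-25065521, at 20.8, 15.4, 22.7 and 16.5 CPM against 0.694 to 1.21 CPM (10.2-fold), 137617 bases from the nearest protein-coding start, that of Arg1. The intergenic peak chr3:74900032-74900619 was at 10.2 to 13.8 CPM against 0.0985 to 0.657 CPM (9.88-fold). The peak chr3:125592909-125593700, in an intron of Ndst4, was at 17.4, 16.5, 19.8 and 16.7 CPM against 0.177 to 2.27 CPM (9.65-fold), beside a transcript that was itself 7.74-fold higher. Every library of the cluster was above every other CA1 library at these peaks.

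Among the peaks with the smallest ratios were the intergenic chr13:110774851-110775750 at 1.19 to 2.47 CPM against 4.51 to 22.8 CPM (5.83-fold) and chr2:49378862-49380054 at 0.807 to 2.71 CPM against 7.57 to 13.9 CPM (5.60-fold).

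The central 200 bases of some of these peaks are shown from the RefSeq GRCm38 assembly, plus strand, so that the differing regions can be read. Capitals mark a match to 1 of 4 motifs searched on both strands, TGANTCA (AP-1), CAGATG (a bHLH E-box), ATTTGCAT (the POU octamer) and TAATTA (homeodomain), whose letters can share bases with a neighbouring match. The first sequence is the Fras1 intron peak with its single AP-1 match, and the next 2 are the peak of largest ratio and the Ndst4 peak. The label Most open stands for the largest ratio to the other CA1 clusters, not for the highest level. The last pair was chosen after the motif shares were seen, as the peaks of largest ratio that hold an octamer among the more open and an E-box among the less open peaks.
Fras1 intron, chr5:96763105-96763304: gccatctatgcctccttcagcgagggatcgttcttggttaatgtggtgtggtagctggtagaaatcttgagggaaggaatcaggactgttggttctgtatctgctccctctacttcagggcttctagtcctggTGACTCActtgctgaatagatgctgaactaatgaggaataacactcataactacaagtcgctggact
Most open, chr10:25065002-25065201: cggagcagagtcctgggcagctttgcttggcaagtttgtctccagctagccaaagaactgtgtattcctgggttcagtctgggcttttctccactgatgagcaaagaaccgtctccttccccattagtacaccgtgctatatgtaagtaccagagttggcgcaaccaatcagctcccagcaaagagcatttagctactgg
Ndst4 intron, chr3:125593205-125593404: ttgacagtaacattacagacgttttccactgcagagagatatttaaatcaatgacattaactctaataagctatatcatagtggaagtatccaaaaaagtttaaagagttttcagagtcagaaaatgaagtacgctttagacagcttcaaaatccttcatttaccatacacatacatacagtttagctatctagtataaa
More open with octamer, chr5:31447439-31447638: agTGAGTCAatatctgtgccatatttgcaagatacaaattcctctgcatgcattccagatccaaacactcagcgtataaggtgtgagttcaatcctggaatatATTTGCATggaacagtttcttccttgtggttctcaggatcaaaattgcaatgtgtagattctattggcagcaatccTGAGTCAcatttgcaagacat
Less open with E-box, chr5:60599798-60599997: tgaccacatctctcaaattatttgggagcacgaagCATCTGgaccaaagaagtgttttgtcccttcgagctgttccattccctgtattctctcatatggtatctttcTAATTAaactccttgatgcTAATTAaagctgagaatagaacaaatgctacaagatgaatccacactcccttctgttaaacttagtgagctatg

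The peak behind the fourth sequence, 4893 bases from the start of Zfp512, holds 2 AP-1 matches around an octamer and was at 12.2, 10.5, 13 and 11.8 CPM in the cluster against 0.0985 to 1.26 CPM in the other CA1 clusters. The peak of the fifth holds an E-box and 2 homeodomain matches and was at 0.846, 0.962, 0.759 and 1.11 CPM against 6.49 to 11.3 CPM. The 4 libraries of the cluster were apart from the other CA1 libraries at both. The 6 peaks chosen by size alone had no match to the 4 motifs in this window.

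Over the same central 200 bases, TGANTCA was found in 23.3% of the more open and 4.69% of the less open peaks, against 9.49% of the 58047 peaks and 10.1% of all 300362 peaks. ATTTGCAT was found in 6.11% of the more open and 1.21% of the less open peaks, against 1.8% and 1.59%. CAGATG ran the other way, at 16.9% of the more open and 33.1% of the less open peaks, against 19.1% and 23.1%. TAATTA was found in 11.7% and 8.85%, against 5.85% and 6.22%. Away from transcript starts the more and less open shares were 23.2 and 4.91% for TGANTCA, 17.3 and 33.6% for CAGATG, 6.18 and 1.23% for ATTTGCAT and 11.5 and 9.16% for TAATTA, in the same order as over all of these peaks. Of the peaks at 5 CPM or more away from starts, 11.7% held TGANTCA, 22.6% CAGATG, 2.2% ATTTGCAT and 7.4% TAATTA. A match is a string of letters and was not tested as a site of binding.

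**Figure D3:**
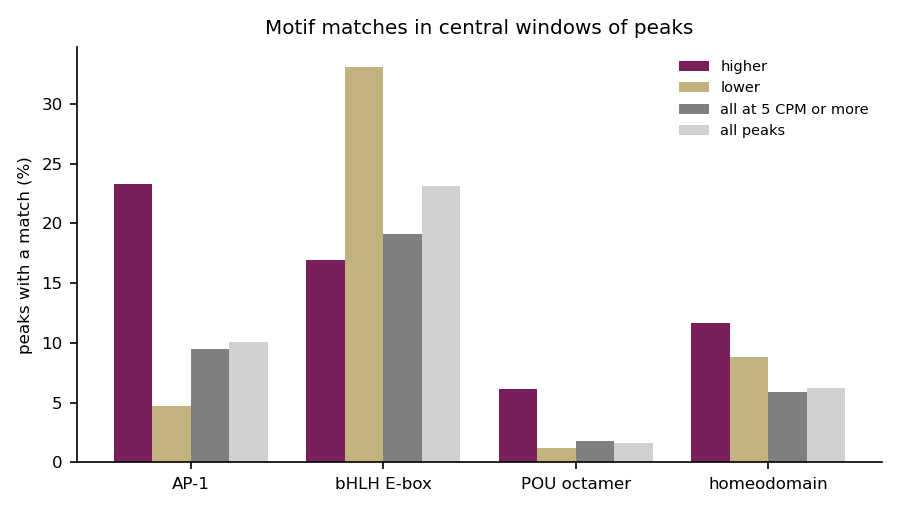
Percentage of peaks with a match to each of 4 motifs in the central 200 bases, for peaks more open (higher) or less open (lower) in Exc-CA1-Fras1 than in the other CA1 clusters, for all peaks at 5 CPM or more and for all peaks, with bars starting at 0. The AP-1 bar reaches 23.3% in the more open peaks and the E-box bar 33.1% in the less open peaks.

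Transcripts were set beside the peaks over the same genes. Nuclei in snATAC-seq got their labels by matching accessibility over genes to transcripts, so the labelling itself favours agreement between the assays. The shares are a description and carry no test. Among 166 transcripts higher in the cluster with peaks over their body, 89.8% were more open in all 4 libraries, with a median log2 ratio of 0.44, whereas 29.8% of 9775 genes were, with a median of 0.02. Among 266 lower transcripts 85.7% were less open in all 4 libraries, with a median of -0.47, against 20.8% of all genes. For the single genes that follow, the peak given was picked as the most open over the gene, or the least open for Zbtb20. The promoter of Nts, chr10:102489705-102490612, was at 7.11, 6.74, 6.4 and 6.25 CPM against 0.428 to 2.39 CPM (3.31-fold). An intronic peak of Tox was 4.32-fold and a promoter peak of Osbpl3 4.54-fold more open, and an intronic peak of Zbtb20 was 4.29-fold less open. The lincRNAs Gm42705 and Gm6260 differed from this. The most open peak of Gm42705, at its promoter, was at 4.74 to 7.01 CPM and overlapped with the other CA1 libraries (5.89 to 9.37 CPM), and that of Gm6260, the promoter peak chr3:143710716-143711985, was at 2.54, 3.02, 5.42 and 3.53 CPM, below every other CA1 library (5.61 to 9.74 CPM).

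The strains were compared within the cluster. Its nuclei were clustered after integration over the samples and named by markers conserved between strains. The labels are thus not independent of strain. By edgeR's quasi-likelihood test with Benjamini-Hochberg adjustment, 2776 of 13725 symbols (20.2%) differed between D2 and B6 at an adjusted p under 0.05, with 1139 higher (8.3%) and 1637 lower (11.9%) in D2, a median change of 1.60-fold and 839 past 2-fold. The direction of this split rests on the scaling. With TMM factors 41.0% of the calls were higher in D2 and the median log2 fold change of all symbols was 0.01. On column totals alone 3026 symbols were called, of which 1873 (61.9%) were higher and 1153 lower, and the median moved to 0.12. The p-values measure the spread between 2 libraries per strain. Without D2 library 3 the count was 1596 and without D2 library 2 it was 1828. In Exc-CA1-Galntl6 3949 of 15207 and in Exc-CA1-Camk2d 1296 of 13782 symbols were called between the same libraries.

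Many strain differences lay where the gene lists behind the tables differ. D2 reads were mapped to an SNP-swapped genome and 8169 symbols were counted in D2 alone, with 3.34 to 3.41% of the D2 and 0.619 to 0.666% of the B6 counts in symbols of 1 strain. By GENCODE vM21 positions, 29.1% of symbols lower in D2 shared bases on the same strand with a symbol counted in D2 alone, against 6.45% of those higher in D2 and 11.6% of all with a position. Past 4-fold the shares were 36.7% of the lower and 3.85% of the higher symbols. Overlap with symbols counted in B6 alone was not examined, so these shares do not clear the symbols higher in D2. Strain and the gene list used for it cannot be told apart at these symbols.

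The transcript with the largest rise in D2 was Rnf121, which encodes a membrane ubiquitin ligase, at 38.6 and 37.6 CPM in B6 and 1299 and 1242 CPM in D2 (log2 fold change 4.95, SE 0.10, adjusted p = 1.79e-22). It rose by 4.26 in Exc-CA1-Galntl6 and 4.32 in Exc-CA1-Camk2d, which come from the same animals. Atp5o, a subunit of the mitochondrial ATP synthase, was at 17.8 and 23.5 CPM in B6 and 295 and 282 CPM in D2 (3.70, SE 0.13, adjusted p = 4.13e-17). Sv2c, a synaptic vesicle glycoprotein, was at 6.37 and 8.44 CPM in B6 and 55.8 and 58.3 CPM in D2 (2.84, SE 0.19, adjusted p = 1.7e-11). Absence of overlap between the strains was a condition for naming these transcripts. The peak over Sv2c with the smallest strain p was chr13:96023448-96024450, in an intron. It was at 0.846 and 0.962 CPM in B6 and 11.3 and 11.6 CPM in D2 (log2 fold change 3.69, SE 0.31, adjusted p = 2.58e-28).

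The others of the 10 largest rises were Gm20324 (4.84), Dnajc5b (4.22), 1700057H15Rik (4.0), Pisd, the mitochondrial phosphatidylserine decarboxylase (3.16), Dnah6 (3.16), Stab2 (2.88) and Rap1gapos (2.81). Pisd was at 30.7 and 21.8 CPM in B6 and 263 and 249 CPM in D2. At Stab2, whose transcript was higher in D2, an exonic peak at chr10:86968977-86969840 went the other way, from 12.7 and 9.07 CPM in B6 to 0.651 and 0.807 CPM in D2.

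Schip1, a protein of the axon initial segment, was at 1957 and 1880 CPM in B6 and 57.6 and 68.2 CPM in D2 (log2 fold change -5.05, SE 0.09, adjusted p = 6.12e-23). The overlapping symbol Iqschfp had 0 counts in both B6 libraries and 108 and 80 in D2. Cpne1, a copine, was at 43.0 and 47.3 CPM in B6 and 0.254 and 0.33 CPM in D2 (-7.25), and its overlapping symbol Gm37274 had 0 counts in B6 and 30 and 19 in D2. Rnasek (-6.03), Rhbdl1 (-5.73), Glcci1 (-5.30) and Phyhd1 (-5.06) also shared bases with symbols counted in D2 alone. In the D2 libraries of the cluster the overlapping symbol of Glcci1 had 25 and 13 counts and that of Rnasek 0. Those of Rhbdl1 and Phyhd1 had at most 1 count each in a library. Among the 10 largest rises, Pisd overlapped Gm20671 (11 and 10 counts in D2) and Dnah6 overlapped Gm24533 (0 counts). Atp5o had no usable position in the annotation and could not be examined for overlap. No such overlap was found for Tek, the angiopoietin receptor, at 47.0 and 55.3 CPM in B6 and 0.761 and 0.659 CPM in D2 (-6.20, SE 0.31, adjusted p = 1.01e-13).

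Mitochondrial transcripts were uneven. mt-Co3 was at 291 and 438 CPM in B6 and 2.54 and 1.98 CPM in D2 (-7.40) and mt-Atp6 at 260 and 415 CPM in B6 and 5.84 and 4.61 CPM in D2 (-6.09). The 13 mitochondrial symbols together held 0.146 and 0.232% of counts in B6 and 0.0678 and 0.0514% in D2. Arhgap26, the tenth of the largest falls, was at 446 and 436 CPM in B6 and 7.36 and 9.89 CPM in D2 (-5.81). All 20 transcripts named for size kept their call under every alternative, column totals included.

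The share of symbols lower in D2 went up with the span of the gene. Of 555 symbols that span 300 kb or more, 39.8% were lower and 4.68% higher in D2, with a median log2 fold change of -0.18, and of 5633 under 20 kb 7.83% were lower and 10.7% higher, with a median of 0.11. Symbols of 100 to 300 kb stood between, with 21.3% lower. On column totals the longest class had 143 lower and 48 higher symbols (median -0.07) and the shortest 347 lower and 947 higher (median 0.22). Among long symbols without an overlap with a symbol counted in D2 alone, 34.0% of 297 were lower, and among those with one 46.5% of 258. The mean level rose with span, from a median of 11.5 CPM in the shortest to 225 CPM in the longest class, so that span and depth moved together.

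**Figure D4:**
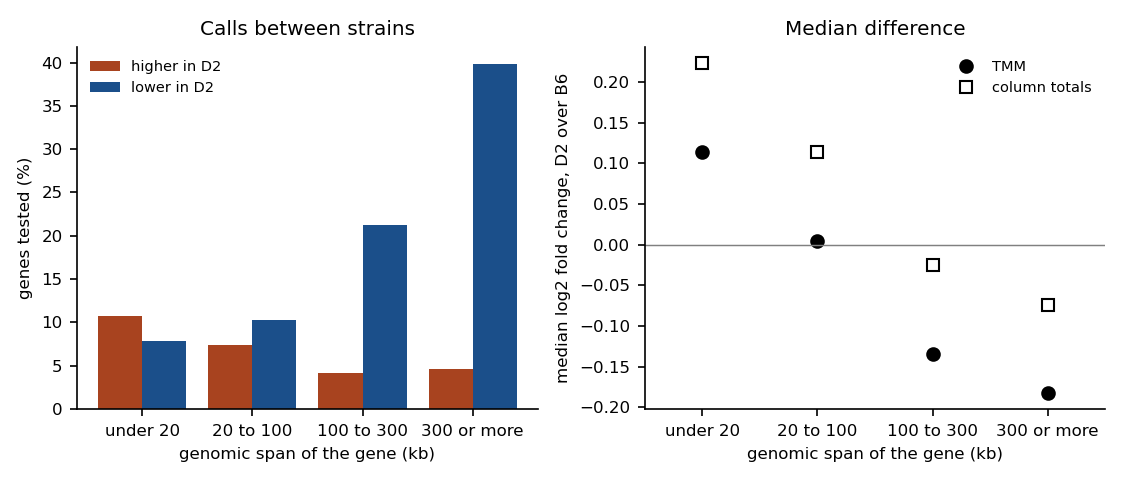
Percentage of symbols higher and lower in D2 than in B6 at an adjusted p under 0.05 within Exc-CA1-Fras1, by the span of the gene in kb, with TMM scaling (left), and the median log2 fold change of the same symbols with TMM and with column totals (right). The lower share goes from 7.83% under 20 kb to 39.8% at 300 kb or more, and the median of the longest genes is below 0 under both scalings (-0.18 and -0.07).

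Of the 176 transcripts higher in the cluster 68 were lower and 13 higher in D2 (median log2 fold change -0.21), and of 242 tested among those lower in the cluster 32 were lower and 27 higher (median -0.02), against 11.9% lower and 8.3% higher of all symbols and a median of 0.01. On column totals the counts were 44 lower and 18 higher of the 176 (median -0.10) and 24 lower and 33 higher of the 242 (median 0.09), against a median of 0.12. Fras1 was among the 68, with a log2 fold change of -0.27 (SE 0.08, adjusted p = 0.0138), but it shared bases with a symbol counted in D2 alone, was not called on column totals (adjusted p = 0.109) and lost its call without B6 library 3 (0.0713) or D2 library 3 (0.147). Oprm1 was at 204 and 237 CPM in B6 and 124 and 141 CPM in D2 (-0.84, adjusted p = 7.06e-07). Neurod6 was higher, from 14.3 and 13.8 to 28.2 and 33.3 CPM (1.01, adjusted p = 0.00025). The strains did not overlap for Oprm1 or Neurod6, whose direction was the same on column totals.

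The gene groups were read against 8.3% higher and 11.9% lower, and against 1873 higher and 1153 lower of 13725 on column totals. Of 40 synaptic adhesion genes 1 was higher and 19 lower in D2, with a median log2 fold change of -0.18 (2 and 14, median -0.07, on column totals). Of these genes 22 span 300 kb or more, and 12 of the 19 shared bases with a symbol counted in D2 alone. Lrrtm4 fell from 6475 and 5974 CPM to 5000 and 5027 CPM (-0.42, adjusted p = 5.22e-06) and Cntnap5b from 730 and 686 CPM to 364 and 414 CPM (-0.98, adjusted p = 9.56e-10), both genes with such an overlap. Of 33 axon guidance genes none was higher and 14 lower (3 and 10 on column totals), and of 22 cadherins 1 and 8 (2 and 7).

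Of 26 kinases, cyclases and phosphodiesterases none was higher and 12 lower (1 and 6 on column totals), and of 36 potassium and HCN channel genes 4 and 13 (7 and 10). Dpp10 was lower in D2 (-0.45, adjusted p = 9.3e-06) and shared bases with a symbol counted in D2 alone. Of 24 sodium and calcium channel genes 1 was higher and 6 lower (2 and 3 on column totals, where the median turned from -0.09 to 0.02). Of 14 GABA receptor genes none was higher and 6 lower (none and 2). Gabra5, an extrasynaptic receptor subunit of hippocampal pyramidal cells, was at 54.2 and 60.1 CPM in B6 and 38.1 and 34.3 CPM in D2 (-0.76, adjusted p = 0.000196) and had no such overlap.

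Of 20 AMPA and kainate receptor genes 2 were higher and 4 lower (3 and 2 on column totals, with the median turning from -0.04 to 0.08). Grik1 rose from 72.9 and 61.2 CPM in B6 to 128 and 112 CPM in D2 (0.73, adjusted p = 4.72e-05), and Grik4 was also higher (0.87, adjusted p = 3.54e-05). Of 14 NMDA and metabotropic receptor genes none was higher and 5 lower (1 and 2). Of 12 matrix genes 5 were lower and none higher (4 and none). Reln, which encodes reelin (-0.94, adjusted p = 6.27e-06), and Spock1, a proteoglycan at 58.2 and 62.4 CPM in B6 and 31.7 and 33.3 CPM in D2 (-1.0, adjusted p = 4.55e-06), were among them. Reln and 2 others of the 5, Spock3 and Tnr, shared bases with a symbol counted in D2 alone. Of 6 Fraser complex genes and partners 3 were lower, all with such an overlap (none on column totals), and of 10 collagens 2 were higher and 1 lower under both scalings.

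Of 44 transcription factors 6 were higher and 10 lower (8 and 6 on column totals, with the median turning from -0.04 to 0.07). Of 15 activity-induced genes 4 were lower (Nr4a1, Nr4a3, Homer1 and Bdnf) and none higher (3 and 1 on column totals, with the median turning from -0.03 to 0.08). Nr4a1 was at 61.7 and 63.7 CPM in B6 and 41.4 and 48.5 CPM in D2 (-0.60, adjusted p = 0.00126). Of 7 corticosteroid receptor and stress target genes Fkbp5 and Per1 were lower under both scalings, Per1 losing its call by DESeq2 (adjusted p = 0.091) and without D2 library 3 (0.0703). Fkbp5, a chaperone induced by glucocorticoids, was at 96.2 and 68.3 CPM in B6 and 50.5 and 48.1 CPM in D2 (-0.85, adjusted p = 7.95e-05), whereas Nr3c1, the glucocorticoid receptor itself, was at 81.5 and 101 CPM in B6 and 94.4 and 110 CPM in D2 (0.05, adjusted p = 0.814). Of 16 neuropeptide and receptor genes 2 were higher and 1 lower (5 and 1), and of 18 monoamine and acetylcholine receptor genes 1 and 2 (3 and 2, median turning from -0.11 to 0.00).

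Of 6 genes known from earlier work to differ between these strains, Alad, Hdhd3 and Kcnj9 were higher and Gabra2 and Mpdz lower in D2. The list names the genes without the direction of the earlier differences, so directions were not compared. Mpdz shared bases with a symbol counted in D2 alone and was not called without D2 library 3 (adjusted p = 0.0635). The call of Hdhd3 was lost by DESeq2 (0.476) and without B6 library 2 (0.46), D2 library 2 (0.18) or D2 library 3 (0.18). That of Kcnj9 was lost by DESeq2 (0.284) and without B6 library 3 (0.0733), D2 library 2 (0.052) or D2 library 3 (0.153). Alad, of haem synthesis, was at 3.07 and 2.81 CPM in B6 and 12.9 and 18.8 CPM in D2 (2.28, adjusted p = 6.46e-06). Gabra2 was at 462 and 548 CPM in B6 and 470 and 438 CPM in D2 (-0.26, adjusted p = 0.0316), with libraries of the strains overlapping, and was not called on column totals (adjusted p = 0.177) or without B6 library 3 (0.402) or D2 library 3 (0.275).

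In snATAC-seq 5466 of 269326 peaks (2.03%) differed between the strains in the cluster, with 2839 more open (1.05%) and 2627 less open (0.975%) in D2. On column totals 5348 were called, with 2302 more open and 3046 less open. Of these calls 51.9% were more open with TMM and 43.0% on column totals. The count was 1478 without D2 library 2, 1561 without D2 library 3, 3330 without B6 library 2 and 2781 without B6 library 3. Among peaks with counts in all 4 libraries the largest changes were at chr2:129137538-129137759, an intergenic peak at 0.339 and 0.138 CPM in B6 and 16.5 and 19.4 CPM in D2 (log2 fold change 6.27), and at chr17:33980589-33981766, at 26.1 and 24.5 CPM in B6 and 0.325 and 0.404 CPM in D2 (-5.99), 19170 bases from the start of H2-K1. The next by the same rule were both in Sfi1 (chr11:3157710-3158730, 5.30, and chr11:3135794-3136301, 5.28) for D2, and both on chromosome Y in Gm47283 (chrY:90799807-90800806, -5.69, and chrY:90802989-90803665, -5.37) for B6. Peaks at promoters of transcripts higher in D2 were more open in D2 in 2.75% and less open in 0.358% of 837 genes, and for transcripts lower in D2 in 0.594% and 0.933% of 1179, against 1.14% and 0.292% of 9240 genes.

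Whether a strain difference in the cluster differed from that in the other CA1 clusters was tested directly, as the D2 over B6 log2 fold change in Exc-CA1-Fras1 minus its mean in Exc-CA1-Galntl6 and Exc-CA1-Camk2d, with the library as a block. Of 14986 symbols 56 (0.374%) passed, 17 above and 39 below. In 26 of them the change in the cluster had the opposite sign to both other clusters. Selection by the size of the difference favours opposite signs, so this count describes the set and is not a result about it. Of the 56, 16 shared bases with a symbol counted in D2 alone. Fewer symbols passed without a D2 library and more without a B6 library. Each such fit leaves 1 library of a strain, so these calls cannot show which libraries the differences rest on. The estimates moved with the libraries of either strain. That of Bdnf (-1.399) was -1.369 and -1.431 without D2 library 2 or 3, and -0.898 and -1.84 without B6 library 2 or 3. That of Cpne5 (1.758) was 2.15 and 1.38 without D2 library 2 or 3, and 1.752 and 1.764 without B6 library 2 or 3. Plscr4, Gm38505, Schip1 and Vat1l passed when either D2 library was left out, and Pdlim1 also without D2 library 3.

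Vat1l, a cytosolic oxidoreductase-like protein of projection neurons, was at 78.2 and 81.1 CPM in B6 and 65.7 and 65.9 CPM in D2 in the cluster, a log2 fold change of -0.38. In Exc-CA1-Galntl6 it rose from 7.19 and 6.68 CPM to 26.7 and 22.3 CPM, while in Exc-CA1-Camk2d it was at 7.96 and 8.44 CPM in B6 and 13.4 and 14.8 CPM in D2 (adjusted p = 0.116), and the difference was -1.63 (SE 0.17, adjusted p = 6.54e-05). The cluster was high in both strains, and the other clusters were low in both.

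Plscr4, a phospholipid scramblase, was at 11.6 and 12.3 CPM in B6 and 19.3 and 23.4 CPM in D2 (0.71), whereas the other clusters fell by 1.52 and 2.21 on the log2 scale, a difference of 2.57 (SE 0.27, adjusted p = 7.32e-05). Gm38505, a lincRNA, fell from 71.8 and 88.8 CPM to 14.0 and 12.2 CPM (-2.71), with 2.25 to 9.94 CPM in the other CA1 clusters and changes of 0.03 and 0.90 there. The difference was -3.20 (SE 0.28, adjusted p = 1.87e-05). This lincRNA was at 2351 CPM in the oligodendrocyte precursor cluster, whose markers summed to 3.33 to 4.61 CPM in Exc-CA1-Fras1. Pdlim1, a PDZ and LIM domain protein of the cytoskeleton, was at 29.9 and 29.4 CPM in B6 and 19.8 and 20.4 CPM in D2 (-0.67), against rises of 1.08 and 1.47 in the other clusters (difference -1.96, SE 0.25, adjusted p = 0.000594).

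The following differences passed over all 4 libraries and were lost when either D2 library was left out. Olfm3, an olfactomedin of AMPA receptor complexes, was at 35.1 and 24.8 CPM in B6 and 99.99 and 84.0 CPM in D2 (1.5, adjusted p = 3.09e-08), with -0.02 and -0.18 in the other clusters (difference 1.58, SE 0.28, adjusted p = 0.0145). Its promoter peak, chr3:114903757-114905387, was at 7.62 and 6.60 CPM in B6 and 11.4 and 12.5 CPM in D2 (0.82, adjusted p = 0.00199), but its difference from the other clusters did not pass (0.90, adjusted p = 0.11). This peak was picked by the smallest strain p among 20 tested peaks over the gene. Transcript and promoter were thus both higher in the D2 libraries, without overlap.

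Adamts18, a matrix protease, was at 11 and 13.3 CPM in B6 and 6.60 and 11.5 CPM in D2 (-0.56, adjusted p = 0.153), with rises of 1.97 and 1.2 in the other clusters (difference -2.16, adjusted p = 0.00336). The peak chr8:113790787-113792274 in its intron was at 7.79 and 7.01 CPM in B6 and 3.90 and 3.73 CPM in D2 (-0.89, adjusted p = 0.0194), and its difference from the other clusters passed as well (-1.15, adjusted p = 0.0243). This peak had the smallest strain p of 17 tested peaks over the gene and was picked for that. The strains overlapped for the transcript and not for the peak.

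Cdh24, a cadherin, rose from 5.71 and 5.88 CPM to 40.1 and 34.3 CPM (2.58), with 2.02 and 0.36 in the other clusters (difference 1.38, adjusted p = 0.041). Fstl4 was at 14.9 and 13.3 CPM in B6 and 23.1 and 21.8 CPM in D2 (0.56), with -1.48 in Exc-CA1-Galntl6 and 0.13 in Exc-CA1-Camk2d (difference 1.2, adjusted p = 0.0135). C130073E24Rik barely moved in the cluster (0.05, adjusted p = 0.803), with -1.33 and -0.80 in the others (difference 1.10, adjusted p = 0.0176). Exc-CA1-Galntl6 also rose for Cdh24 and fell for the other 2. The difference for Cdh24 was also lost without B6 library 2 (adjusted p = 0.165).

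The non-coding 2310002F09Rik was at 20.2 and 21.5 CPM in B6 and 1.02 and 0.659 CPM in D2 (-4.65), with -3.43 and -0.15 in the other clusters (difference -2.90, SE 0.56, adjusted p = 0.0226). A peak in its intron, chr7:43788016-43788512, was at 11.7 and 11.6 CPM in B6 and had no count in either D2 library of the cluster (adjusted p = 7.14e-48). The peak was lower in D2 in the other clusters too, from 8.30 and 7.76 to 0.116 and 0.346 CPM in Exc-CA1-Galntl6 and from 5.26 and 3.32 to 0.197 and 0.0885 CPM in Exc-CA1-Camk2d, and its test of the difference did not pass (adjusted p = 0.369). With 3 counts per library as the limit that a count of 0 allows, which covers counting error only, the D2 level was at most 0.325 and 0.303 CPM. The central window of this peak in the reference assembly, which is of the B6 strain, holds an AP-1 and an E-box match.
Lost in D2, chr7:43788165-43788364: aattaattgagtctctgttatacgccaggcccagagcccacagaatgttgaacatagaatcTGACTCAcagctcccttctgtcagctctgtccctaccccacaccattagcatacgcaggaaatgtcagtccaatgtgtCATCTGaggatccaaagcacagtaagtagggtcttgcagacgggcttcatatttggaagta

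**Figure D5:**
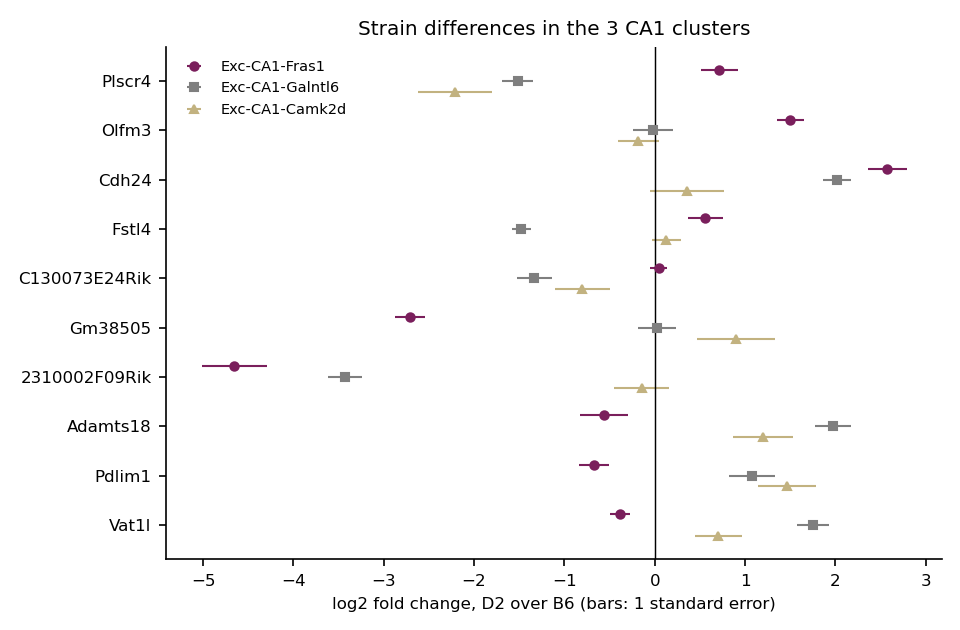
Log2 fold change of D2 over B6 in each of the 3 CA1 clusters for the 10 transcripts with the largest tested difference of strain differences, with bars of 1 standard error (2 libraries per strain). Vat1l lies at -0.38 in Exc-CA1-Fras1 and to the right of 0 in the others, and Plscr4 at 0.71 with the others to the left of 0.

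Genes of the groups described above were few among the 56. Bdnf, a growth factor of active synapses, was at 32.5 and 21.8 CPM in B6 and 15.0 and 18.1 CPM in D2 (-0.85, adjusted p = 0.00406), with 0.23 and 0.86 in the other clusters (difference -1.40, SE 0.25, adjusted p = 0.0135). Its strain call was lost without B6 library 2 (adjusted p = 0.127) or D2 library 2 (0.0737) and by DESeq2 (0.122). Cdh18, a cadherin, was at 147 and 139 CPM in B6 and 109 and 113 CPM in D2 (-0.48), with 0.49 and 0.46 in the others (difference -0.97, adjusted p = 0.00062), and it shared bases with a symbol counted in D2 alone. Grik1 had a difference of 0.79 (SE 0.15, adjusted p = 0.0226) and changes of 0.03 and -0.16 in the others. Spock1, Homer1, Cntn4, Cntnap5b, Adgrl2, Sox5 and Galntl6 were also below (differences of -0.47 to -0.86, adjusted p = 0.00978 to 0.0402). Without D2 library 2 or 3 none of these 10 passed. Of 269326 peaks 136 (0.0505%) passed the same test, 83 above and 53 below.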

How the data were processed

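Exc-CA1-Fras1 was described from counts that the authors deposited per cell type and library. Reads of snRNA-seq went through Cell Ranger 6.0.2 with introns kept, those of snATAC-seq through Cell Ranger ATAC 2.0.0. B6 was mapped to mm10 and D2 to the same genome with D2 SNPs swapped in. The authors removed doublets, clustered nuclei in Seurat 4.0.5, and merged MACS peaks called per sample. Labels of snATAC-seq nuclei came from the snRNA-seq clusters. Column names give strain and library number (2 or 3), while the labels number replicates otherwise, so the groups are the strains. Not used were 44 columns of other cell types, namely interneurons in both tables, Cajal-Retzius cells in snRNA-seq and glia in snATAC-seq, and symbols or peaks counted in 1 strain over the columns used.

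Strain differences were tested with edgeR 4.0.16 (quasi-likelihood, TMM, filterByExpr for symbols, at least 10 counts for peaks, Benjamini-Hochberg over all features, adjusted p under 0.05), in R 4.3.3. Cluster ratios used CPM on column totals, a pseudocount of 1 CPM and minima of 10 CPM for transcripts and 5 CPM for peaks. The alternatives were DESeq2 1.42.0, other scalings, filters, blocks and leaving out libraries, with column totals and the lower of the other clusters added after the data were seen. Positions and peak classes came from GENCODE vM21, and the sequences from the RefSeq GRCm38 assembly. The genes named were the 12 largest and smallest cluster ratios, the 10 largest strain changes each way without overlap between strains at 10 CPM, the 5 largest differences each way, the 3 largest peaks each way, and list members, with at most 2 clone names a direction. A peak given for a named gene in the cluster comparison was its most or least open. In the strain comparison it was the peak over the gene with the smallest strain p. The members and lists were chosen with earlier results of these data known.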

Additional observations from a re-analysis of the deposited data

Results flagged for a closer look

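The strain difference in Exc-CA1-Fras1 differed from the mean of that in the other CA1 clusters, by the test of the difference itself, for the transcripts and peaks given here. Above the other clusters on the log2 scale were Plscr4 (2.57), Olfm3 (1.58), Cdh24 (1.38), Fstl4 (1.2) and C130073E24Rik (1.10). Below were Gm38505 (-3.20), 2310002F09Rik (-2.90), Adamts18 (-2.16), Pdlim1 (-1.96) and Vat1l (-1.63). Of these 10, only Plscr4, Gm38505 and Vat1l passed without D2 library 2, and those 3 and Pdlim1 without D2 library 3.

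Among peaks, the intronic Lsamp peak chr16:41308607-41310410 was at 9.82 and 9.90 CPM in B6 and 2.71 and 2.12 CPM in D2 in the cluster (difference 2.87). The other clusters fell further in D2, to levels near 0. Exc-CA1-Galntl6 went from 9.78 and 10.2 to 0.289 and 0.346 CPM, and Exc-CA1-Camk2d from 10.7 and 6.85 to 0.197 and 0.354 CPM. This Lsamp peak was the 1 peak that also passed by DESeq2. The other peaks above were chr2:74462789-74463726 (2.21) and chr18:67860255-67860801, at the promoter of a Cep192 transcript (2.00). The peaks below were chr18:40901181-40902297 (-2.74), chr12:112133636-112134096 (-2.10) and chr7:103783562-103784306 (-1.90). These 5 were not called by DESeq2.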

How the results depend on the processing

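The strain count of 2776 transcripts was 1044 by DESeq2, 1036 of them shared with edgeR, and 4249 over all symbols of the table. It was 2764 with RLE, 2979 with at least 1 count and 3026 on column totals, where 2292 were shared. Leaving out a library gave 1596 to 2513, lowest without D2 library 3, with the lone library of a strain assumed to vary like the others. The 5466 peaks became 1298 by DESeq2, 5389 with RLE, 4805 with at least 40 counts and 1478 to 3330 without a library. The cause of these changes was not tested. With the library number as a replicate block the counts were 2736 transcripts and 5676 peaks. Same-numbered libraries deviated with a correlation of -0.0752 for transcripts and 0.0114 for peaks. These values show no shared shift but cannot settle whether same-numbered libraries were processed as pairs.

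The 56 differences from the other CA1 clusters were 17 by DESeq2, 191 with at least 1 count, 22 with no replicate block for the library and 4 to 310 without a library, lowest without D2 library 2 and highest without B6 library 3. All 17 and all 22 were among the 56. The 136 peaks were 1 by DESeq2. Of the 10 transcripts named there, DESeq2 kept 8 and the fit without the block 7.

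Cluster counts of 176 higher and 274 lower transcripts were 107 and 449 against the higher of the other clusters, 378 and 105 against the lower, and 179 to 206 and 285 to 299 without a library. Those of 2797 and 1322 peaks were 1610 and 4031 against the higher, 5404 and 384 against the lower, and 4887 and 2933 at 2 CPM. No transcript or peak named by the size of its strain change or difference changed sign under these alternatives, whereas the split of calls between the strains turned on column totals. Each library held 298 to 455 snRNA-seq nuclei of the cluster.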
